A study of Mus musculus with 12 samples.

Results

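The Ms4a genes Ms4a4a, Ms4a4c, Ms4a6b, Ms4a6c, Ms4a6d and Ms4a7 were looked up in RNA-seq libraries of bone marrow-derived macrophages (BMDMs), and 5 of these 6, all except Ms4a4a, had a row among the 23997 genes of the tables. All 5 reached at least 1 FPKM (fragments per kilobase of transcript, scaled for library size, so a level per transcript length) in at least one library, and all 5 passed the filter on low values. Ms4a4a was not analysed here. The 12 libraries came from 4 groups of 3: untreated WT, untreated Pim1-/-, LPS-treated WT and LPS-treated Pim1-/- cells. Both genotypes were C57BL/6, and marrow came from male mice aged 8 to 10 weeks, cultured with recombinant human M-CSF at 10 ng/ml for 7 days. LPS, the bacterial lipopolysaccharide sensed by TLR4, was given at 100 ng/ml for 4 h, and the labels give no time for the untreated wells. Pim1-/- mice carry a CRISPR-Cas9 deletion of exons I to V of Pim1, a serine/threonine kinase gene, so the macrophages also differentiated under the deletion and did not meet it only during the LPS treatment. The labels do not say whether the 3 libraries of a group came from separate mice or cultures, so p-values measure the spread between these libraries, which may be technical.

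Ms4a genes encode small membrane proteins that cross the membrane several times and keep both ends inside the cell. The best known are Ms4a1, which encodes CD20 of B cells, and Ms4a2, the beta chain of the high-affinity IgE receptor of mast cells and basophils. Other members sit in the membranes of macrophages, where MS4A4A has been described as a partner of the beta-glucan receptor Dectin-1 in tetraspanin-rich domains. Ms4a4c is known as an interferon-inducible gene and Ms4a7 as a gene of mature macrophages. Ms4a6b, Ms4a6c and Ms4a6d are closely related genes whose roles are less settled.

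The 5 genes lie in the Ms4a cluster on chromosome 19 (GRCm38, GENCODE M21), which spans 678.6 kb from Ms4a10 to Ms4a3 and holds 35 annotated genes. In chromosome order they are Ms4a7 (11321039 to 11336146, minus strand), Ms4a4c (11404770 to 11427246, plus), Ms4a6c (11469366 to 11482192, plus), Ms4a6b (11516512 to 11531256, plus) and Ms4a6d (11586604 to 11604849, minus). Of the 35 genes, 21 were in the tables and 8 reached 1 FPKM in any library. The transcripts of Ms4a6b and Ms4a6c were 89.4% identical over 1192 aligned bases. Those of Ms4a6b and Ms4a6d were 86.6% identical, and those of Ms4a6c and Ms4a6d 83.2% identical. Ms4a4c was 91.4% identical to its neighbour Ms4a4b.

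Identity this high can let reads be split between copies. Of all 50-base windows of each transcript, 11.33% in Ms4a6c, 8.48% in Ms4a4c, 5.89% in Ms4a6b, 2.92% in Ms4a6d and 0% in Ms4a7 also occurred in another gene. At 100 bases the shares were 1.72% in Ms4a4c, 0.57% in Ms4a6c and 0% in the others. Values of Ms4a4c and of the Ms4a6 genes are therefore uncertain to the extent that the authors' counting divided such reads, while Ms4a7 shared none. Other annotations also overlap Ms4a4c (Gm5692, a pseudogene), Ms4a6c (BE692007, a processed transcript) and Ms4a6b (Gm19261, antisense) on the opposite strand. The sources used here do not state whether counting used strand.

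The sequence just upstream of the start was read for Ms4a7, Ms4a4c, Ms4a6c and Ms4a6b from a RefSeq table (GRCm38.p6); that of Ms4a6d was not used here. Those of Ms4a6c and Ms4a6b are shown because the pair is alike in sequence while their levels in Pim1-/- cells, relative to WT, were unlike. That of Ms4a4c is shown because it had the largest fold change with LPS, though Ms4a6c, Ms4a6d and Ms4a7 gained more FPKM. Each is written 5′ to 3′ on the plus strand, lies upstream of the RefSeq start and was trimmed so that it holds no GENCODE exon, and capitals mark runs of at least 10 bases found in both Ms4a6c and Ms4a6b.
Ms4a6c, chr19:11469118-11469365: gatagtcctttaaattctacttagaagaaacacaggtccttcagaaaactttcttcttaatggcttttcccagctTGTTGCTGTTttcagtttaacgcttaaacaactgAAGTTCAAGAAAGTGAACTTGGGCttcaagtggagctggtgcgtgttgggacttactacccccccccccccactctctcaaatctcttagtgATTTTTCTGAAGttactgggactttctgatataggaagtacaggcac
Ms4a6b, chr19:11518309-11518452: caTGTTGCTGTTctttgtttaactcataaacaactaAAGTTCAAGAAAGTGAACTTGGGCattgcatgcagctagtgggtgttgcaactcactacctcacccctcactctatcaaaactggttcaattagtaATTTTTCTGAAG
Ms4a4c, chr19:11407411-11407660: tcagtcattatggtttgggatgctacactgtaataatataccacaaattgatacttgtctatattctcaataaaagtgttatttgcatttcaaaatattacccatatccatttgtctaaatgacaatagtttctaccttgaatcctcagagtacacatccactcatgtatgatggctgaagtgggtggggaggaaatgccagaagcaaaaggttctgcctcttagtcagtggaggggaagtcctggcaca
Ms4a6c and Ms4a6b share 3 such runs with 46 bases in all, the longest of 24 bases. Before trimming at exons, 170 bases of the 2 windows could be aligned, and 89.4% of them were identical. Neither pair member shared more than 15 aligned bases with Ms4a4c. The windows of Ms4a4c and Ms4a6b lie within the spans GENCODE gives these genes, since GENCODE holds longer transcripts that start farther upstream.

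A set of 4 motifs was searched on both strands of the full windows. They were the ISRE core, written as GAAA, any 2 bases and GAAA (in 3.44% of 32851 RefSeq windows of the same length), the GAS motif TTCNNNGAA (8.3%), the PU.1 motif GAGGAAGT (3.2%) and the kB consensus (4.51%). None of the 4 had a match in the windows of Ms4a7, Ms4a4c, Ms4a6c or Ms4a6b. This says only that these letters are not in these windows.

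Pim1 itself stood at 21.5 to 25.0 FPKM in untreated WT and at 8.00 to 9.51 in untreated Pim1-/- libraries, and at 630.2 to 665 against 205 to 236 after LPS. The tables give 1 value per gene and do not separate deleted from kept exons. Replicates correlated at 0.9958 to 0.9978 across genes. FPKM sums ran from 452511 to 489710 in untreated and from 713307 to 849323 in LPS-treated libraries, so results that change when libraries are set to equal sums are named below. From the steps between low values, 1 fragment on a 1-kb transcript was worth 0.0220 to 0.0269 FPKM in untreated and 0.0314 to 0.0484 FPKM in LPS-treated libraries.

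Ms4a4c was low at rest, under 1 FPKM in Pim1-/- cells only, and high after LPS. Its level was 3.69, 4.50 and 3.53 FPKM in untreated WT and 0.213, 0.195 and 0.267 FPKM in untreated Pim1-/- libraries. After LPS it was 224, 212 and 202 FPKM in WT and 95.9, 92.6 and 84.7 FPKM in Pim1-/- libraries. No 2 groups overlapped. The untreated Pim1-/- values rest on few fragments, an estimated 12.0 to 17.9 if they came from the 1723-base transcript and 1.40 to 2.10 if they came from the 361-base one, the longest and the shortest of its 3 protein-coding transcripts.

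Ms4a6b was low in Pim1-/- cells in both states. The untreated WT libraries held 51.6, 53.5 and 48.8 FPKM and the untreated Pim1-/- libraries 6.35, 6.57 and 6.60 FPKM. After LPS, WT libraries held 160.4, 158 and 147 FPKM and Pim1-/- libraries 18.3, 18.7 and 13.8 FPKM. Every Pim1-/- library, LPS-treated ones included, was below every untreated WT library.

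Ms4a6c and Ms4a6d were the highest of the 5 after LPS in WT cells. Ms4a6c was at 179.6, 190.3 and 171 FPKM in untreated WT and at 50.3, 53.1 and 47.7 FPKM in untreated Pim1-/- libraries. With LPS it was at 994, 986 and 932 FPKM in WT and at 463, 461 and 416 FPKM in Pim1-/- libraries. For this gene the untreated Pim1-/- group was lowest and the LPS-treated WT group highest, with no overlap. Ms4a6d was at 139.8, 163 and 129.6 FPKM in untreated WT and at 91.4, 94.3 and 83.1 FPKM in untreated Pim1-/- libraries. With LPS it was at 964, 948 and 897 FPKM in WT and at 504, 484 and 424 FPKM in Pim1-/- libraries. Its groups did not overlap either, and its untreated genotypes were the closest of the 5 genes.

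Ms4a7 was the highest of the 5 genes at rest in both genotypes. It was at 489, 527 and 479 FPKM in untreated WT and at 181, 187 and 168 FPKM in untreated Pim1-/- libraries. After LPS it was at 807, 822 and 802 FPKM in WT and at 425, 439.8 and 377 FPKM in Pim1-/- libraries. LPS-treated Pim1-/- libraries stayed below untreated WT libraries for this gene, as they did for Ms4a6b.

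**Figure D1:**
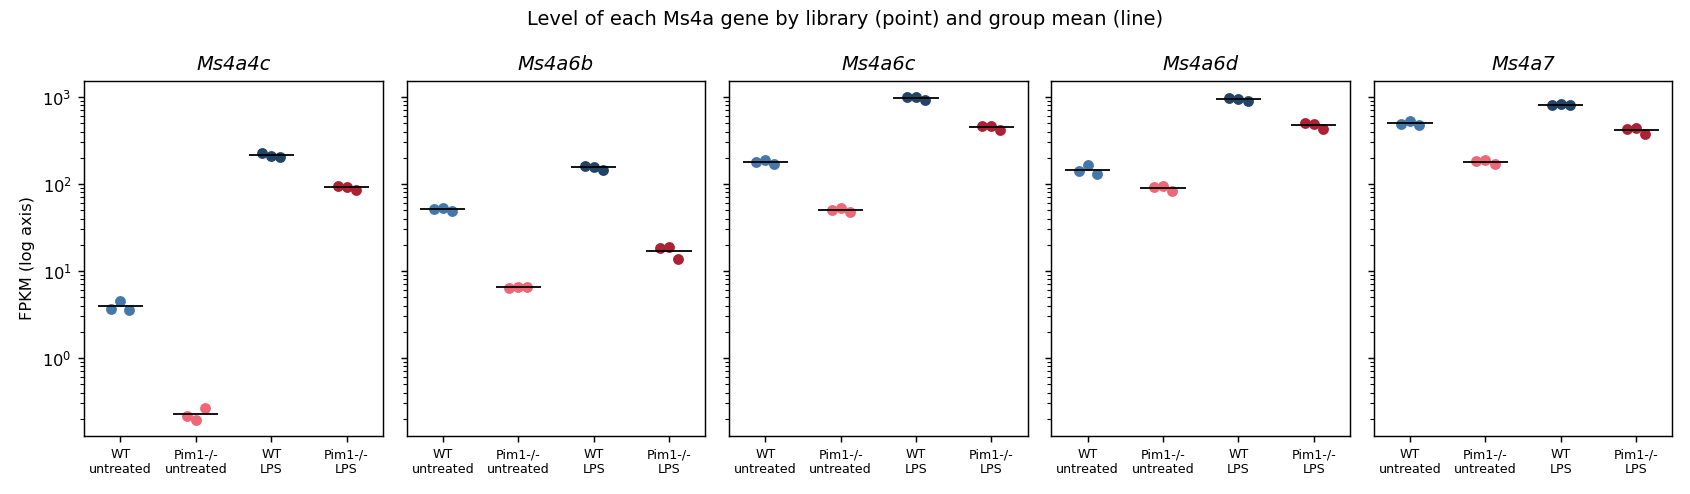
FPKM of the 5 Ms4a genes in each of the 12 libraries on a log axis, with 1 point per library and a line at the mean of each group of 3. Untreated Pim1-/- libraries were the lowest for every gene, and Ms4a4c covered the widest range, from 0.195 to 224 FPKM.

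With LPS, 4 of the 5 genes were called higher in WT cells. Calls required a change of over 2-fold, an unadjusted p below 0.05 and a false discovery rate (FDR) below 0.1 in limma on log2(FPKM + 1), adjusted over all 10581 genes tested. Of all those genes, 20.1% were called higher and 34.8% in either direction. Ms4a4c rose by 5.45 ± 0.07 on the log2 scale (SE, adjusted p = 3.8e-19), which was 54.5-fold between the group means. Ms4a6d rose by 2.70 ± 0.08 (adjusted p = 1.3e-14), Ms4a6c by 2.42 ± 0.05 (adjusted p = 4.5e-16) and Ms4a6b by 1.58 ± 0.08 (adjusted p = 2.5e-11). Ms4a7 differed by 0.70 ± 0.06 (adjusted p = 1.0e-08), under the 2-fold threshold, and the sign of this difference turned with the scaling, to -0.39 under quantile normalization and -0.11 with equal library sums. Those scalings also moved the median of all genes from 0.00 to -0.17 and -0.71, and left Ms4a6b at 0.60 and 0.78, below the threshold.

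In Pim1-/- cells all 5 genes rose with LPS, against 14.6% of tested genes called higher and 25% in either direction. Ms4a4c rose by 6.23 ± 0.07 (adjusted p = 1.0e-19), and its group means differed 404-fold. This ratio has the few fragments of the untreated group as its base, and the fitted value became 8.13 with a pseudocount of 0.1. Ms4a6c rose by 3.12 ± 0.05 (adjusted p = 2.5e-17), Ms4a6d by 2.38 ± 0.08 (adjusted p = 9.8e-14), Ms4a6b by 1.25 ± 0.08 (adjusted p = 7.4e-10) and Ms4a7 by 1.20 ± 0.06 (adjusted p = 1.3e-11). With equal library sums, Ms4a6b at 0.67 and Ms4a7 at 0.54 were no longer called, and under quantile normalization Ms4a7 was at 0.34.

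Without LPS, 4 of the 5 genes were called lower in Pim1-/- than in WT cells, against 3.37% of tested genes called lower and 7.78% in either direction. Fewer cells expressing a gene and less RNA per cell cannot be told apart in these bulk libraries. Ms4a6b fell by 2.80 ± 0.08 on the log2 scale (adjusted p = 1.2e-13), to 12.7% of its WT level. The differences were -1.997 ± 0.069 for Ms4a4c (adjusted p = 8.6e-13), -1.82 ± 0.05 for Ms4a6c (adjusted p = 1.5e-13) and -1.47 ± 0.06 for Ms4a7 (adjusted p = 4.1e-12). In FPKM these 3 stood at 5.76%, 27.9% and 35.9% of WT. The pseudocount held the Ms4a4c value small, and with 0.1 in place of 1 it was -3.62. Ms4a6d differed by -0.68 ± 0.08 (adjusted p = 1.4e-06), 62.2% of WT, and did not reach the fold threshold. All 5 were lower at an FDR under 0.05 with no fold threshold, as were 4439 of the 10581 genes tested. The median over the 5 genes was -1.82, beside -0.05 for all genes tested.

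After LPS, 3 of the 5 genes were called lower in Pim1-/- cells, against 5.15% of tested genes called lower and 8.66% in either direction. Ms4a6b fell by 3.13 ± 0.08 (adjusted p = 4.9e-14), to 10.9% of WT, the largest genotype difference among the 5. The differences were -1.22 ± 0.07 for Ms4a4c (adjusted p = 3.2e-10) and -1.12 ± 0.05 for Ms4a6c (adjusted p = 5.0e-11), which put them at 42.8% and 46.0% of WT. Ms4a6d at -0.99 ± 0.08 (adjusted p = 1.5e-08) and Ms4a7 at -0.97 ± 0.06 (adjusted p = 5.7e-10) lay just short of 2-fold, at 50.3% and 51.1% of WT. All 5 passed the FDR threshold taken alone, as 42.2% of tested genes did in this direction, so the count of 3 depends on where the fold threshold lies. Without the second LPS-treated Pim1-/- library all 5 were called. Under quantile normalization 1 was called (Ms4a6b), with Ms4a4c at -0.91 and Ms4a6c at -0.89, and with equal library sums 2 were called, with Ms4a6c at -0.91.

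**Figure D2:**
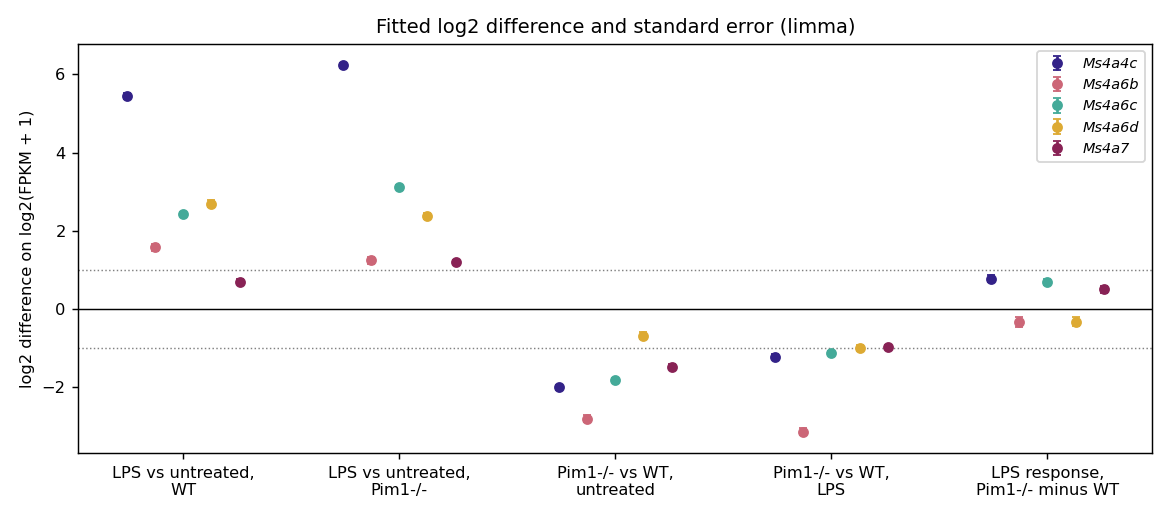
Fitted log2 difference on log2(FPKM + 1), with bars for the standard error, for each gene in the 5 comparisons. Dotted lines mark 2-fold. Ms4a6b lies farthest below 0 in both genotype comparisons, at -2.80 and -3.13.

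The difference in LPS response between genotypes was tested as an interaction. In the fit as described, none of the 5 was called at more than 2-fold, against 6.67% of tested genes in either direction, while all 5 passed p under 0.05 and FDR under 0.1 without the fold threshold, as 31.3% of tested genes did upward and 34.7% downward. Ms4a4c (0.78 ± 0.10, adjusted p = 5.8e-06), Ms4a6c (0.70 ± 0.08, adjusted p = 1.4e-06) and Ms4a7 (0.50 ± 0.08, adjusted p = 7.9e-05) had the larger log2 response in Pim1-/- cells. Ms4a6b (-0.33 ± 0.12, adjusted p = 0.0219) and Ms4a6d (-0.32 ± 0.11, adjusted p = 0.0209) had the smaller one. Other settings called 1 gene each: Ms4a4c at 2.40 with a pseudocount of 0.1 and at 1.60 with equal library sums, and Ms4a6c at 1.09 under quantile normalization. The values of Ms4a6b and Ms4a6d depended on the scaling. That of Ms4a6b was 0.59 under quantile normalization, -0.20 without the third LPS-treated Pim1-/- library, and missed the FDR threshold with a pseudocount of 0.1 (limma, adjusted p = 0.109) and equal sums (adjusted p = 0.386). That of Ms4a6d was -0.06 under quantile normalization (adjusted p = 0.601) and -0.17 with equal sums (adjusted p = 0.122), both also above the FDR threshold. On the linear scale, in FPKM as given, every gene gained more in WT than in Pim1-/- cells. The mean rose by 791 against 396 FPKM for Ms4a6c, 792 against 381 for Ms4a6d, 312 against 235 for Ms4a7, 209 against 90.8 for Ms4a4c and 104 against 10.4 for Ms4a6b. With equal library sums Ms4a7 did not gain in WT, at -0.11 on the log2 scale, but did in Pim1-/- cells, at 0.54.

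The make-up of the family's RNA moved with LPS. The 5 genes together summed to 878 ± 54.4 FPKM (SD, n = 3) in untreated WT, 325 ± 18.4 in untreated Pim1-/-, 3085 ± 92.3 in LPS-treated WT and 1439 ± 108 in LPS-treated Pim1-/- libraries. At rest Ms4a7 made up 56.8% ± 0.717 of the sum in WT and 54.9% ± 0.071 in Pim1-/- libraries. In WT the order below it was Ms4a6c (20.6%), Ms4a6d (16.4%), Ms4a6b (5.85%) and Ms4a4c (0.444%), with no overlap between neighbours. In Pim1-/- cells Ms4a6d (27.5%) stood above Ms4a6c (15.5%), which turned the order of these 2 genes. After LPS, Ms4a6c and Ms4a6d led in WT at 31.5% and 30.3%, and their FPKM ranges overlapped. Within each of these libraries Ms4a6c was the higher, at a ratio of 1.03 to 1.04. Ms4a7 came next at 26.3%, and Ms4a4c (6.90%) passed Ms4a6b (5.02%). In LPS-treated Pim1-/- libraries Ms4a6d (32.7%), Ms4a6c (31.1%) and Ms4a7 (28.8%) each overlapped the next in FPKM, and Ms4a6b was lowest at 1.17%. Their order was the same within each library, and the shares of the first 3 did not overlap (32.2% to 33.5%, 30.7% to 31.7% and 28.2% to 29.4%).

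**Figure D3:**
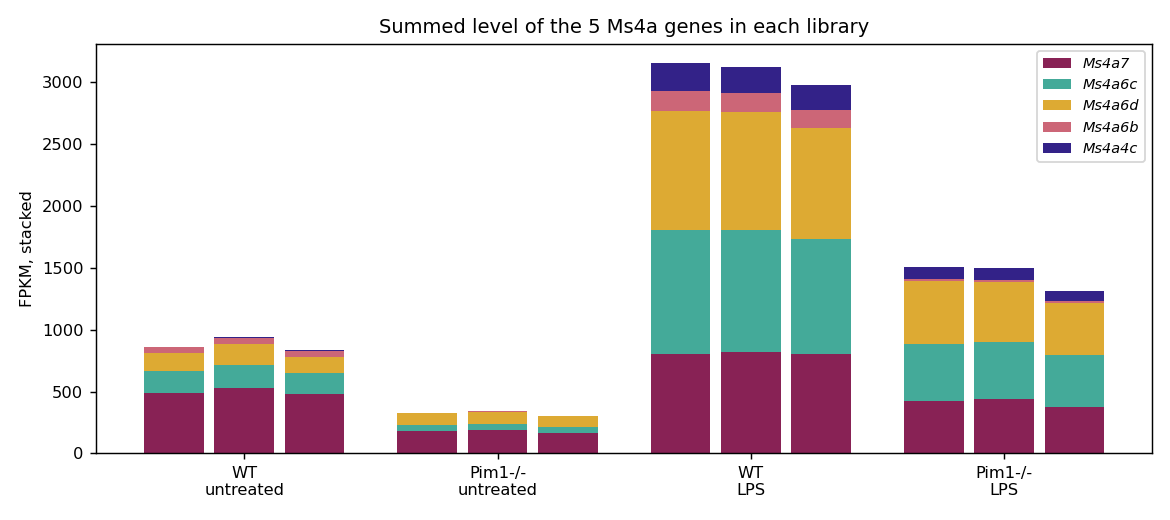
FPKM of the 5 genes stacked in each library, with the 3 bars of a group side by side. The sum was highest in LPS-treated WT libraries, from 2980 to 3150 FPKM, and lowest in untreated Pim1-/- libraries, from 305 to 341 FPKM.

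Ms4a6c and Ms4a6b, the pair with similar upstream sequence, came apart in Pim1-/- cells, and so did Ms4a6d and Ms4a6b. The ratio of Ms4a6c to Ms4a6b was 3.52 ± 0.039 (SD, n = 3) in untreated WT and 7.74 ± 0.454 in untreated Pim1-/- libraries. After LPS it was 6.27 ± 0.086 in WT and 26.7 ± 2.96 in Pim1-/- libraries. Ranges of the 4 groups did not overlap. Multiplying a library by a constant leaves such a ratio as it is, but quantile normalization changes it, and it depends on how reads shared by the pair were divided. Against Ms4a6d, Ms4a6c went from 1.26 ± 0.081 in untreated WT to 0.562 ± 0.012 in untreated Pim1-/- libraries, and the ratio was 1.04 ± 0.005 and 0.951 ± 0.033 after LPS.

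Of 15 other genes listed for the family, 13 were in the tables and 3 passed the filter on low values; Ms4a12 and Ms4a14 were not analysed here. Tmem176a and Tmem176b encode related multi-pass proteins of intracellular membranes and lie outside the cluster. Tmem176b averaged 81.0 ± 5.44 FPKM in untreated WT and 9.11 ± 0.870 in untreated Pim1-/- libraries, and 237 ± 8.78 and 26.4 ± 1.84 FPKM after LPS. Tmem176a averaged 29.5 ± 2.69, 2.83 ± 0.378, 131 ± 6.11 and 11.8 ± 0.743 FPKM in the same order. Both were called lower in Pim1-/- cells in both states, 2 of the 3 tested, against 3.37% of all tested genes untreated and 5.15% after LPS. The log2 differences were -3.02 untreated and -3.12 after LPS for Tmem176b, and -2.99 and -3.37 for Tmem176a. Ms4a4b, a gene of T cells that sits next to Ms4a6c, stayed low at 0.842 ± 0.084, 0.202 ± 0.047, 3.24 ± 0.163 and 1.66 ± 0.217 FPKM. It was called higher with LPS in both genotypes, as were Tmem176a and Tmem176b. Of all tested genes, 20.1% in WT and 14.6% in Pim1-/- cells were called higher with LPS. The 91.4% identity of Ms4a4b to Ms4a4c bears on so low a value. The other 10 did not pass the filter, and Ms4a4d had the highest value among them, 0.486 FPKM.

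Chromosome neighbours at higher levels were few. AW112010, a lincRNA gene within the cluster that was picked after its values were seen, averaged 5.01 FPKM in untreated WT, 2.24 in untreated Pim1-/-, 1980 in LPS-treated WT and 1188 in LPS-treated Pim1-/- libraries. It rose by 8.36 ± 0.05 in WT (adjusted p = 1.7e-22) and by 8.52 ± 0.05 in Pim1-/- cells (adjusted p = 1.6e-22). Its genotype differences were -0.89 at rest and -0.74 after LPS, under the fold threshold. Gm8369, also picked after its values were seen, lies between Ms4a6c and Ms4a6b and was at most 1.37 FPKM in any library. The genes that flank the 5 members at either end of the cluster, such as Ms4a10, Ms4a15, Ms4a2 and Ms4a3, were at or near 0.

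**Figure D4:**
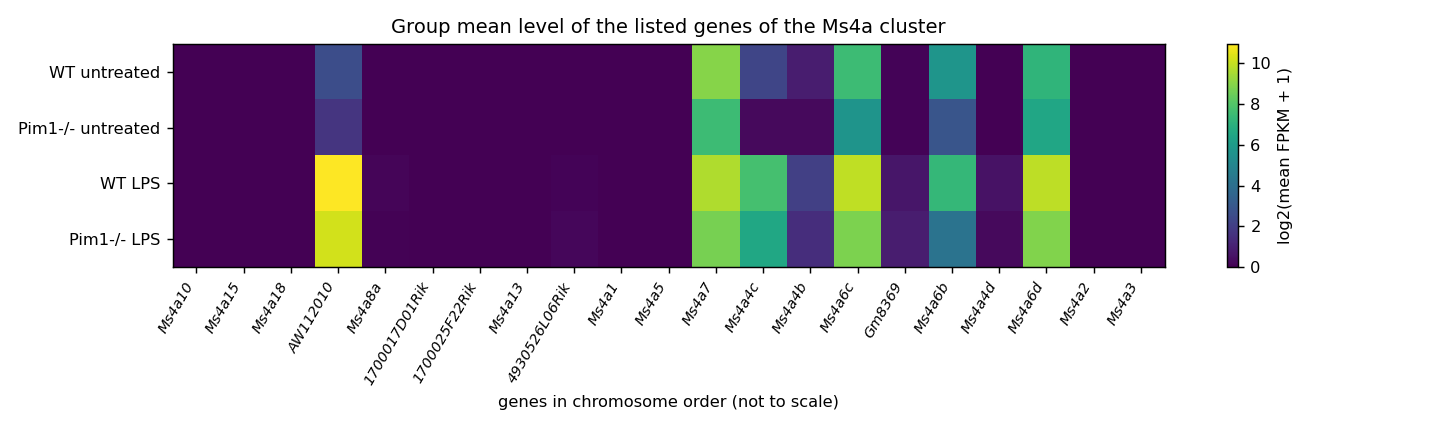
Group mean level, as log2(mean FPKM + 1), of the 21 genes of the cluster that were in the tables, in chromosome order and not to scale. The highest levels are those of Ms4a7, Ms4a4c, Ms4a6c, Ms4a6b, Ms4a6d and the lincRNA gene AW112010, while Ms4a10, Ms4a15, Ms4a2 and Ms4a3 at the ends are dark.

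Each gene was compared with all others over the 12 libraries by Pearson's r on log2(FPKM + 1). The points share 4 groups and their libraries, so r describes likeness of group pattern and carries no test. Ms4a6b was closest to Emr4, an adhesion receptor gene related to F4/80 (0.996), Tmem176b (0.995) and Csf3r, the G-CSF receptor gene (0.994). Ms4a4c was closest to Trex1, a DNA exonuclease gene, Map3k8, a kinase gene, and Mitf, a transcription factor gene (0.999 each). Ms4a6c was closest to Igsf6 (0.999), Ier3 (0.997) and Rasa4 (0.996), and Ms4a6d to Il13ra1 (0.999), Aoah (0.998) and Tifa (0.998). Ms4a7 was closest to Hist3h2a (0.996), H2-Aa, which encodes an MHC class II chain (0.995), and Ly86 (0.995). Among the members, r ran from 0.648 between Ms4a4c and Ms4a6b to 0.990 between Ms4a4c and Ms4a6d.

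Membrane partners and tetraspanins were described from a list of 15 genes, of which 14 were tested. Of these 14, 3 were called lower in untreated Pim1-/- cells and 2 after LPS, and none was called higher, against 3.37% and 5.15% of all tested genes called lower. The list medians were -0.31 and -0.28, beside -0.05 and -0.03 for all genes. The 2 called after LPS were the Fc receptor genes Fcgr2b (-1.67) and Fcgr3 (-1.37), and the tetraspanin gene Cd9 lay the other way at 0.54 untreated and 0.77 after LPS, under the fold threshold; these 3 were picked after their values were seen. Clec7a, which encodes Dectin-1, averaged 141 ± 5.67 FPKM in untreated WT and 45.4 ± 1.27 in untreated Pim1-/- libraries, and fell by 1.61 on the log2 scale (adjusted p = 3.0e-12). After LPS it averaged 81.0 ± 4.62 and 45.9 ± 4.38 FPKM, a difference of -0.81 that was not called. Mrc1, the mannose receptor gene, averaged 88.2 ± 5.86 against 31.4 ± 1.62 FPKM untreated, and fell by 1.46. Trem2, a lipid-sensing receptor gene, averaged 849 ± 18.6 against 825 ± 39.6 FPKM untreated and 677 ± 20.5 against 689 ± 19.7 after LPS. Its differences of -0.04 (adjusted p = 0.395) and 0.03 (adjusted p = 0.61) did not pass.

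Macrophage markers were present in every library, and most moved with genotype beside the Ms4a genes. The 10 markers summed to 27900 to 29950 FPKM in untreated WT and 14420 to 15330 in untreated Pim1-/- libraries, and to 30810 to 31300 and 15920 to 17790 FPKM after LPS. Lyz2 alone made up most of these sums. Csf1r, Mertk and Fcgr1 were called lower in both states, 3 of 10, against 3.37% and 5.15% of all tested genes. The medians of the 10 were -0.74 untreated and -0.86 after LPS, beside -0.05 and -0.03 for all genes. The markers did not move alike. Cd14 was at -0.06 untreated, where the genotypes overlapped, and at -0.13 after LPS, and Cd68 at -0.28 and -0.20. Cx3cr1 lay above 0 in both, at 0.19 and 0.49. The part of this in the Ms4a differences was not tested.

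Markers of other cells were low. The 6 B cell markers, Ms4a1 among them, summed to at most 3.53 FPKM, 7 T and NK cell markers to at most 3.48, 6 mast cell and basophil markers to at most 0.208, 10 progenitor and neutrophil markers to at most 8.27 and 8 dendritic cell markers to at most 2.875 FPKM in any library. The T and NK cell list includes Ms4a4b, which at 3.06 to 3.37 FPKM made up most of its sum in LPS-treated WT libraries. Cd3e and Fcer1a were listed at 0 in all 12 libraries. Among monocyte markers, Spn was at 7.05 to 8.04 FPKM in untreated WT and 17.6 to 19.5 in untreated Pim1-/- libraries, and at 12.4 to 13.7 and 25.2 to 29.8 FPKM after LPS. Ccr2 was at 8.16 to 9.13 against 3.39 to 3.70 FPKM untreated and at most 0.832 FPKM after LPS, and Ly6c2 was at most 1.15 FPKM in any library. Spn was called higher in Pim1-/- cells in both states, at 1.22 untreated and 1.05 after LPS. Ccr2 was called lower untreated, at -1.06, but not after LPS, at -0.34. Of all tested genes, 7.78% were called in either direction untreated and 8.66% after LPS. The part of the monocyte markers in the Ms4a differences was not tested.

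**Figure D5:**
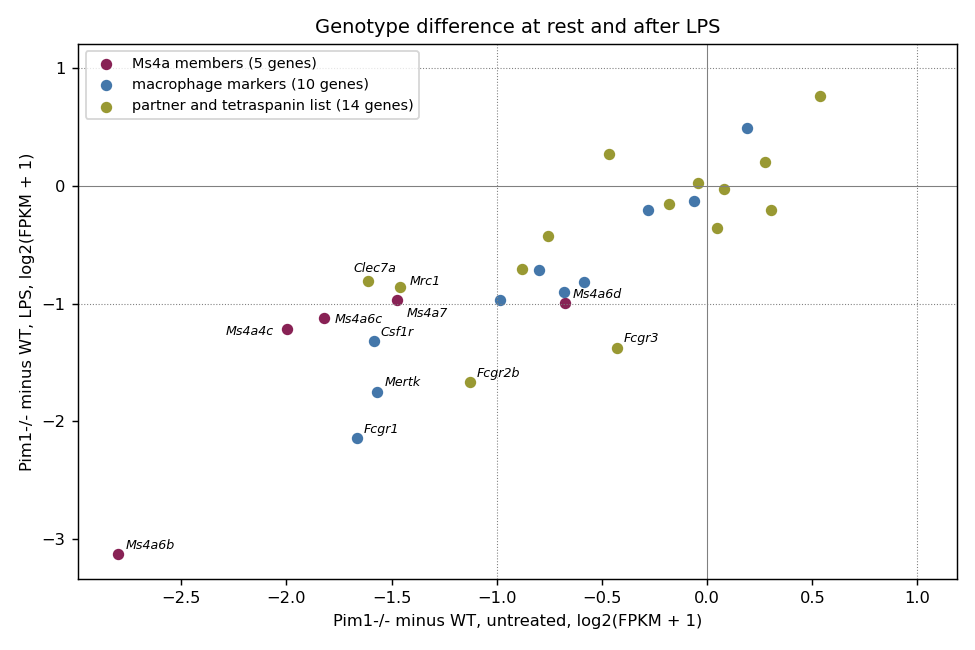
Pim1-/- minus WT difference on log2(FPKM + 1), untreated on the x axis and after LPS on the y axis, for the 5 Ms4a genes, 10 macrophage markers and 14 tested partner and tetraspanin genes, with dotted lines at 2-fold. Ms4a6b lies lowest at -2.80 and -3.13, and the macrophage markers have medians of -0.74 and -0.86.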

How the data were processed

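Per the labels, total RNA was made into stranded mRNA libraries, and the submitters' processing notes name bcl2fastq 2.20.0.422, cutadapt 1.18, TopHat2 2.0.13, Cuffdiff 2.2.1 and build mm10, while the study's methods name a rat build. The symbols are those of mouse (22500 of 23997 matched RefSeq GRCm38.p6 symbols). The deposited values were taken as FPKM, 1 column per library. No header states this unit, and the sources used here name neither the annotation nor the library scaling. Genes that reached 1 FPKM in 3 or more libraries were fitted in limma 3.58.1 (R 4.3.3) as 4 group means on log2(FPKM + 1) with a mean-variance trend, with Benjamini-Hochberg adjustment over all 10581. Fold changes of low genes are understated on this scale. On simulated data for the LPS-treated genotype comparison (10581 genes), 190 of 200 changes of 3-fold, set on log2(FPKM + 1), were recovered with 0 false calls. The noise was normal on that scale and independent between genes, and unchanged genes were set equal between genotypes. These settings made false calls unlikely from the outset, and the result does not bear on genes near 2-fold. Named genes were the members, the family, partner and marker lists, Pim1, and the 3 genes with the highest r to each member. The members and lists were chosen with earlier results of these data known. Alternatives were another pseudocount, filters, scalings, thresholds, a replicate block and each library left out. After removal of group means, same-numbered libraries correlated at 0.43 to 0.68 between Pim1-/- states and at 0.33 to 0.46 between untreated genotypes, but at -0.10 to 0.19 between WT states and 0.02 to 0.37 between LPS-treated genotypes. Libraries with different numbers were not compared, so whether the numbers pair libraries was not tested. Of low values in single-transcript genes, 77.3% lay within 0.1 of a whole number of fragments (20% if evenly spread), so depth was estimated and no count test was run. Figures were drawn with matplotlib 3.10.9. The monocyte marker list is given in part, and its sum is not reported here.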

Additional observations from a re-analysis of the deposited data

Results flagged for a closer look

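The LPS response differed between genotypes for each of the 5 genes by the interaction term in limma on log2(FPKM + 1), at an adjusted p under 0.1 with no fold threshold, a rule that 31.3% of tested genes passed upward and 34.7% downward. The Pim1-/- minus WT difference was 0.78 for Ms4a4c, 0.70 for Ms4a6c and 0.50 for Ms4a7, and -0.33 for Ms4a6b and -0.32 for Ms4a6d. Ms4a4c stood at 0.195 to 0.267 FPKM in untreated Pim1-/- libraries, so its value depends on the pseudocount: it was 2.40 with 0.1. Under quantile normalization Ms4a6b was at 0.59 and Ms4a6d missed the FDR threshold (limma, adjusted p = 0.601). With equal library sums both missed it (adjusted p = 0.386 and 0.122), as did Ms4a6b with a pseudocount of 0.1 (adjusted p = 0.109). Groups of 3 libraries were not searched for single libraries that stood apart.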

How the results depend on the processing

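Over 550 values of single genes under all alternatives, 547 kept their direction. Many of these could not change it. The filters, the fit on only the groups compared, the replicate block, the FDR rule and limma without trend left each fitted difference as it was. So did leaving out a library from outside the comparison. The 3 that reversed were Ms4a7 with LPS in WT cells, -0.39 under quantile normalization and -0.11 with equal library sums (TPM), and the Ms4a6b interaction, 0.59 under quantile normalization; the cause was not tested. The replicate block left all 25 gene values on the same side of the threshold (4 members called with LPS in WT, 5 with LPS in Pim1-/-, 4 and 3 between genotypes untreated and with LPS, and 0 in the interaction). With equal groups the block cannot move the fitted differences, so only their p-values could change. With an FDR of 0.05 and no fold threshold the calls over all genes were 9453 (LPS, WT), 8954 (LPS, Pim1-/-), 7904 (genotype, untreated), 8194 (genotype, LPS) and 6657 (interaction), and members called were 5 after LPS between genotypes and 5 in the interaction. With a pseudocount of 0.1 the calls were 1442 between LPS-treated genotypes and 1075 in the interaction, where 1 member (Ms4a4c, 2.40) was called. Equal library sums called 4233 genes and 3 members with LPS in Pim1-/- cells and 1 member (Ms4a4c, 1.60) in the interaction. Quantile normalization called 1 member between LPS-treated genotypes and 1 (Ms4a6c, 1.09) in the interaction. The FDR threshold was missed in the interaction by Ms4a6b with a pseudocount of 0.1 (adjusted p = 0.109) and equal sums (0.386), and by Ms4a6d under quantile normalization (0.601) and equal sums (0.122), all from limma.

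Scaling moved the split of calls. With LPS in WT cells 2130 genes were called higher and 1556 lower, but 1671 and 1853 under quantile normalization and 1242 and 4199 with equal sums. In Pim1-/- cells the split was 1546 and 1103, then 1322 and 1353, then 1032 and 3201, and the median of all genes moved from -0.01 to -0.17 and -0.62. Between LPS-treated genotypes 371 were higher and 545 lower, against 611 and 377 with equal sums. In the interaction the split of 237 and 469 became 415 and 425 with equal sums and 510 and 565 with a pseudocount of 0.1. Leaving out each library in turn gave 3 to 5 members called between LPS-treated genotypes, with 5 without the second LPS-treated Pim1-/- library. Depth limits Ms4a4c in untreated Pim1-/- cells most, where few fragments carry the value.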
